A study of Mus musculus with 6 samples.

Results

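Prostaglandin E2 (PGE2) synthesis and breakdown was followed through 8 genes, Pla2g4a, Ptgs1, Ptgs2, Ptges, Ptges2, Ptges3, Hpgd and Ptgr1, chosen by name from the 55487 genes of the deposited tables. The cells were 4T-1, a mouse mammary carcinoma line, with Lyplal1 knocked out (n = 3 libraries) or with the wild-type gene (n = 3 libraries), and all were left untreated. Lyplal1 encodes a lysophospholipase-like protein related to the acyl-protein thioesterases. Whether the knockout cells are a clone or a pool is not given in the sources used here.

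PGE2 is made in 3 steps. A phospholipase A2 frees arachidonic acid from membrane phospholipid, a cyclooxygenase turns it into PGH2, and a terminal synthase turns PGH2 into PGE2, which leaves the cell and acts on 4 receptors (EP1 to EP4, genes Ptger1 to Ptger4). Breakdown starts with oxidation at carbon 15 by the Hpgd enzyme, followed by reduction of the 13,14 double bond. In mammary and other tumours PGE2 is known as a tumour-derived lipid that restrains immune cells. RNA levels are described here; no lipid or enzyme activity was measured.

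Of the 8 genes, Pla2g4a, Ptgs1, Ptgs2, Ptges2 and Ptges3 were higher in knockout cells, by 1.5-fold to 2.79-fold, and Ptges, the inducible terminal synthase, was 19.9-fold higher in wild-type cells. Ptgr1 was not called in either direction. Hpgd had few reads and did not pass the filter on low counts. A gene was called when its adjusted p was under 0.05 in edgeR's quasi-likelihood test over all tested genes (two-sided, Benjamini-Hochberg). Thus 7 of the 8 genes passed the filter, 5 were called higher, 1 lower and 1 was not called. These counts stand against a wide background: 82.3% of the 13022 tested genes were called, 41.3% higher and 40.9% lower in knockout cells. The tested members had a median log2 fold change of 1.03, beside a median of 0.00 over all tested genes. Scaled counts (CPM, reads of a gene relative to the size of the library) of the groups did not overlap for 6 of the 7, and 83.1% of all tested genes likewise had no overlap, so neither share sets these genes apart from the rest of the transcriptome. In bulk RNA, fewer cells of a type and less RNA per cell cannot be told apart.

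The libraries held 16731209 to 16784906 counts in knockout cells and 17007616 to 17108975 counts in wild-type cells. Lyplal1 itself had 54, 48 and 58 counts in knockout libraries and 76, 73 and 68 counts in wild-type libraries. Its log2 fold change was -0.28 ± 0.15 (SE), with an adjusted p of 0.0886 in edgeR's test, so its RNA did not pass the threshold; the position of the edit is not given in the sources used here. All 6 markers fixed for mammary carcinoma epithelium were detected in every library, and their summed counts were 48851 to 49215 in knockout libraries and 70093 to 71567 in wild-type libraries. The sum hides opposite directions: 1 was called higher in knockout cells, Krt7 by 1.68-fold, and 5 were called lower. Those 5 ran from Cdh1, 1.12-fold higher in wild-type cells, to Krt19, 3.87-fold higher in wild-type cells. Knockout replicate 3 stood apart from the others in its lung epithelial markers. Their summed counts were 685, 799 and 2795 in knockout libraries 1, 2 and 3 and 24 to 30 in wild-type libraries, and all 10 were highest in knockout replicate 3. Values of the members without that library are therefore given with the results.

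Upstream sequences are shown for 3 members because they are the member that fell, the most abundant member and the member with the largest rise among those tested. They are the 250 bases before the transcription start that RefSeq annotates on GRCm38.p6, written 5′ to 3′ on the strand of the gene. Capitals mark C/EBP motifs (TTNNGNAA on either strand) in all 3, GC boxes (GGGCGG) in Ptgs2 and Ptges, and an E-box (CACGTG) in Ptges2. The fourth sequence is a 30-base stretch just after the annotated Ptgs2 start, in which capitals mark the joined letters of a CRE core (CGTCA) and an overlapping E-box.
Ptgs2, chr1:150099781-150100030, plus strand: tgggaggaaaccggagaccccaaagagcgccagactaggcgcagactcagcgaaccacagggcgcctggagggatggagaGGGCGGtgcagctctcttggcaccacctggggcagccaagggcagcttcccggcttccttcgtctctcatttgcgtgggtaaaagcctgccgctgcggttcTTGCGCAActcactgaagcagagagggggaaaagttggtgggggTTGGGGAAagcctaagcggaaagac
Ptges, chr2:30903298-30903547, minus strand: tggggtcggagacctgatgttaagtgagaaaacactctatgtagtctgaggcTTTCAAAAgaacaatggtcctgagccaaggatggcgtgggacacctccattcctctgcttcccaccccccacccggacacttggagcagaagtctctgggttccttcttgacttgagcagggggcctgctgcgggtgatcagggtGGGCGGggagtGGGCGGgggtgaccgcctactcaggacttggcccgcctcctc
Ptges2, chr2:32395640-32395889, plus strand: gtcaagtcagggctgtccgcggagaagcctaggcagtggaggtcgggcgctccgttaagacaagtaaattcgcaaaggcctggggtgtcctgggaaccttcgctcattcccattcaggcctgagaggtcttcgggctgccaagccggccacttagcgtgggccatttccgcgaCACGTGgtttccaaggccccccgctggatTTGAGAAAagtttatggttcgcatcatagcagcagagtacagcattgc
Ptgs2 site, chr1:150100035-150100064, plus strand: tcaccactaCGTCACGTGgagtccgcttta

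Motifs were searched on both strands of windows of 300 bases, from 250 before to 50 after the start, and all 8 genes had a window. In Ptgs2 the C/EBP matches lay at -69 to -62 and -25 to -18 relative to the annotated start, and the GC box lay at -170 to -165. The CRE core lay at 14 to 18 and the E-box at 17 to 22 after the annotated start. That E-box also contains the hypoxia core ACGTG. These positions hold only for the annotated start, and where transcription starts in these cells was not tested. Ptges had GC boxes at -53 to -48 and -42 to -37 and a C/EBP match at -198 to -191. Its RefSeq start lies inside the span that GENCODE M21 gives the gene, chr2:30889471-30929863 on the minus strand. The Ptges bases printed above are thus upstream of the RefSeq start but within the GENCODE gene. Ptges2 had an E-box at -77 to -72 and a C/EBP match at -48 to -41. The Ptgs1 window held none of the 10 motifs searched. Such letters are common: of 32851 RefSeq windows, 40.7% held a C/EBP match, 35.7% a GC box, 20.8% a CRE core, 19.6% the hypoxia core and 7.15% an E-box. The other motifs searched were an NF-kB site (GGNNNTTCC, in 18.5% of windows), a full CRE (TGACGTCA, 1.79%), an interferon response element (GAAANNGAA, 8.56%), a TATA box (TATAAA, 13.6%) and a partial antioxidant response element (TGACNNNGC, 12.4%). None of these 5 was found in the windows of Ptgs2, Ptges or Ptges2.

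Pla2g4a encodes cytosolic phospholipase A2 alpha, which frees arachidonic acid from phospholipid. It lies at chr1:149829618-149961290 on the minus strand of GRCm38. Its level was 123, 119 and 115 TPM (reads per gene length, scaled to one total in every library) in knockout libraries 1, 2 and 3, against 70.7, 68.6 and 63.5 TPM in wild-type libraries. Every knockout library lay above every wild-type library. In scaled counts the rise was 2.04-fold, a log2 fold change of 1.03 ± 0.04 (SE, n = 3 each, edgeR adjusted p = 1.13e-18). Without knockout replicate 3 it was 1.05 on the log2 scale. Fold changes of all members come from scaled counts, so they differ from ratios of the TPM shown. In a fit on log2(TPM + 1) the log2 fold change of Pla2g4a was 0.81.

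Ptgs1 and Ptgs2 encode the cyclooxygenases COX-1, the form most tissues make all the time, and COX-2, the inducible form. Ptgs2 (chr1:150100031-150108227, plus strand) reached 351, 357 and 312 TPM in knockout libraries and 155, 154 and 154 TPM in wild-type libraries. The knockout libraries were all higher, with replicate 3 the lowest of them, and the wild-type libraries were nearly equal. The log2 fold change was 1.35 ± 0.04 (SE), a 2.54-fold rise (edgeR adjusted p = 1.35e-21), and 1.40 without knockout replicate 3. In the fit on log2(TPM + 1) it was 1.13. By TPM, the gene ranked 417 among the tested genes in knockout cells and 1230 in wild-type cells. It is the most abundant of the 8 genes in both groups.

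Ptgs1 (chr2:36230426-36252272, plus strand) was less abundant, at 50.6, 51.4 and 53.1 TPM in knockout libraries and 26.2, 25.6 and 25.8 TPM in wild-type libraries. The groups did not overlap. Its log2 fold change of 1.21 ± 0.06 (SE) is a 2.31-fold rise (edgeR adjusted p = 8.18e-17), and it was 1.18 without knockout replicate 3. The fit on log2(TPM + 1) gave 0.97. Part of a Ptgs1 exon is shared with the antisense gene Gm43621, and with the strand setting not given, reads there cannot be assigned to either with certainty.

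Since both cyclooxygenase genes rose, their proportions were compared within each library. Ptgs2 made up 87.4%, 87.4% and 85.4% of the summed Ptgs1 and Ptgs2 TPM in knockout libraries and 85.5%, 85.7% and 85.7% in wild-type libraries. Knockout replicate 3 was below the wild-type libraries and the other knockout libraries above them. The means were 86.8% ± 1.15 in knockout cells and 85.6% ± 0.116 in wild-type cells (SD, n = 3 each), a difference of 1.13 percentage points that was within the spread of the libraries (exact permutation test, two-sided, p = 0.4, where 0.1 is the smallest p that 3 against 3 allows). Without knockout replicate 3 the groups did not overlap and the difference was 1.79 points (exact permutation p = 0.2, the smallest p that 2 against 3 allows). Without knockout replicate 1 or 2 the difference was 0.798 or 0.804 points.

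Pla2g4a and Ptgs2 are neighbours on chromosome 1. From the end of Pla2g4a to the start of Ptgs2 are 138740 bases, with 3 annotated genes between them, Gm19136, Gm44329 and the antisense transcript Ptgs2os. Both coding genes were higher in knockout cells.

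**Figure D1:**
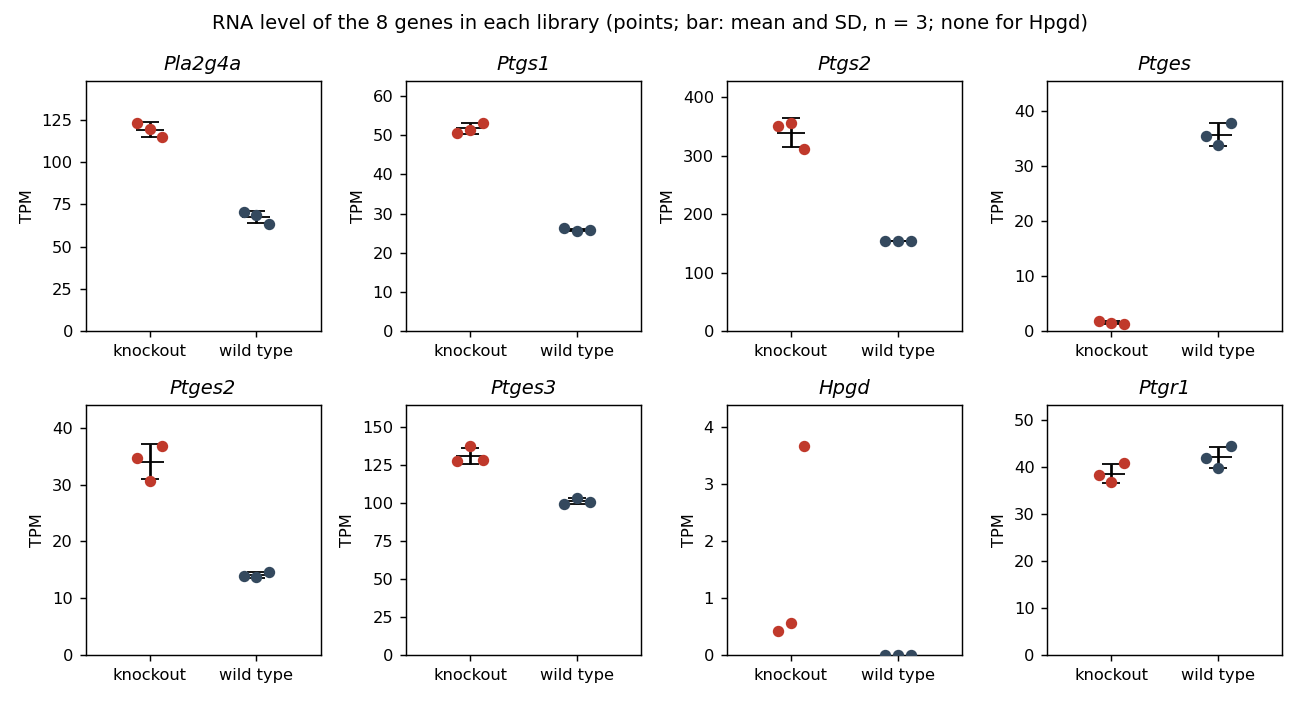
TPM of the 8 genes in each library, with knockout libraries on the left and wild-type libraries on the right of each panel; points are libraries and bars the mean and SD (n = 3; none drawn for Hpgd). Ptges lies at 1.27 to 1.89 TPM in knockout libraries, against 33.8 to 37.8 TPM in wild-type libraries, and Ptgr1 overlaps between the groups.

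The terminal synthases did not move together. Ptges (chr2:30889471-30929863, minus strand) encodes microsomal PGE synthase 1, the inducible enzyme that is known to work together with COX-2. It had 32, 25 and 22 counts in knockout libraries and 584, 555 and 625 counts in wild-type libraries. In TPM these were 1.89, 1.48 and 1.27 in knockout libraries and 35.4, 33.8 and 37.8 in wild-type libraries. All knockout libraries were low and the gap to the wild-type libraries was many times the spread within either group. The log2 fold change was -4.31 ± 0.12 (SE, edgeR adjusted p = 4.03e-22), and -4.20 without knockout replicate 3. Only 158 of the tested genes (1.21%) had a lower fitted log2 fold change, so the fall of Ptges was among the larger ones in the transcriptome.

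Ptges2 (chr2:32395896-32405772, plus strand) encodes microsomal PGE synthase 2, a membrane-associated form that most tissues make constantly. It stood at 34.7, 30.7 and 36.8 TPM in knockout libraries and 14.0, 13.7 and 14.6 TPM in wild-type libraries, with no overlap. The rise was 2.79-fold, or 1.48 ± 0.07 on the log2 scale (SE, edgeR adjusted p = 4.1e-16), and 1.42 without knockout replicate 3. In the fit on log2(TPM + 1) it was 1.21. It is the largest rise among the tested members. Of all tested genes, 794 (6.10%) had a larger fitted log2 fold change.

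Ptges3 (chr10:128058954-128077272, plus strand) encodes the cytosolic PGE synthase, also known as p23, a co-chaperone of Hsp90. Its level was 128, 137 and 128 TPM in knockout libraries and 99.7, 103 and 101 TPM in wild-type libraries, again with no overlap. The rise of 1.5-fold, a log2 fold change of 0.58 ± 0.05 (SE, edgeR adjusted p = 6.41e-12), was the smallest among the called members, and it was 0.59 on the log2 scale without knockout replicate 3. In the fit on log2(TPM + 1) the log2 fold change was 0.37. The processed copy Ptges3-ps had 22, 24 and 26 counts in knockout libraries and 23, 23 and 21 counts in wild-type libraries (edgeR adjusted p = 0.31).

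Because the 3 synthase genes moved in different directions, their summed TPM rose modestly while their proportions changed a great deal. The sum was 165, 170 and 166 TPM in knockout libraries and 149, 151 and 153 TPM in wild-type libraries. With no overlap, the difference of the means was 15.7 TPM for the sum (exact permutation test, two-sided, p = 0.1). Ptges gave 1.15%, 0.873% and 0.765% of that sum in knockout libraries and 23.8%, 22.4% and 24.7% in wild-type libraries. The difference of the mean shares, -22.7 percentage points, was much larger than the SDs of 0.199 in knockout cells and 1.16 in wild-type cells (exact permutation test, two-sided, p = 0.1, the smallest p this design allows). Ptges2 gave 20.4% ± 2.06 in knockout cells and 9.33% ± 0.229 in wild-type cells (SD, n = 3 each). Ptges3 gave the largest part in both, at 78.6% ± 2.07 in knockout cells and 67.1% ± 1.39 in wild-type cells.

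**Figure D2:**
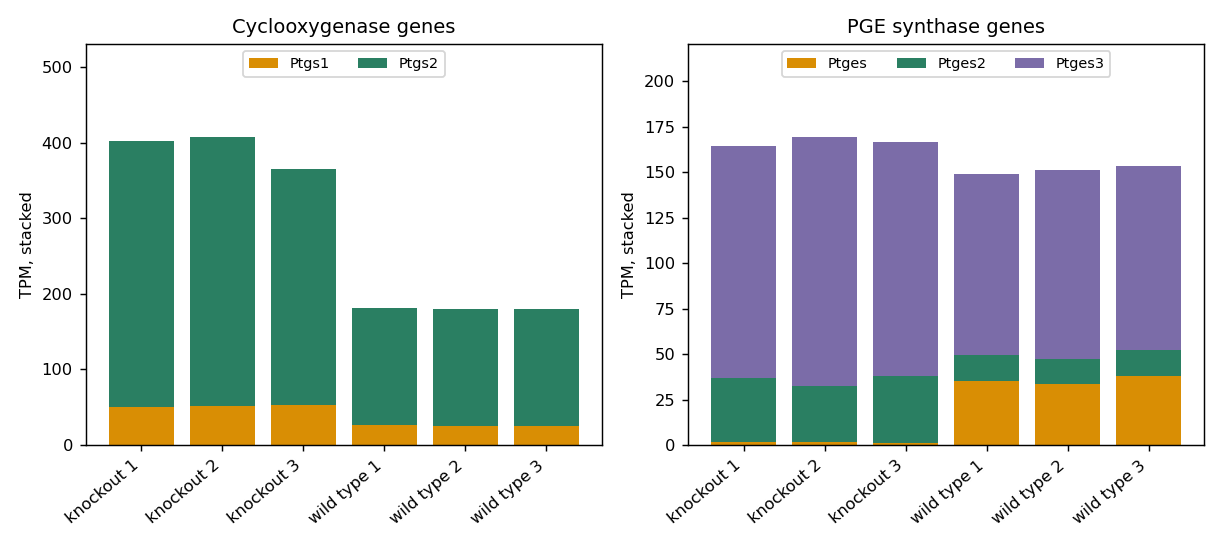
Stacked TPM of the cyclooxygenase genes (left) and of the PGE synthase genes (right) in each library, knockout libraries 1 to 3 first. Ptgs2 is 85.4% to 87.4% of the cyclooxygenase bars in knockout libraries and 85.5% to 85.7% in wild-type libraries, while Ptges is at most 1.15% of the synthase bars in knockout libraries and at least 22.4% in wild-type libraries.

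The ratio of Ptgs2 to Ptges, the inducible pair, was added after the values of both genes had been seen. As log2 of the TPM ratio (0.1 added to each TPM) it was 7.46, 7.82 and 7.83 in knockout libraries and 2.12, 2.18 and 2.02 in wild-type libraries. The groups were far apart, with a difference of 5.59 between the means (exact permutation test, two-sided, p = 0.1). Ranked by mean TPM, the members in knockout cells ran Ptgs2, Ptges3, Pla2g4a, Ptgs1, Ptgr1, Ptges2, then Ptges and Hpgd at the bottom. Ptgr1 and Ptges2 overlapped in that order, at 36.7 to 40.7 TPM and 30.7 to 36.8 TPM, and so did Ptges and Hpgd. In wild-type cells the order was Ptgs2, Ptges3, Pla2g4a, Ptgr1, Ptges, Ptgs1, Ptges2 and Hpgd, and no neighbours overlapped.

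Hpgd (chr8:56294585-56321043, plus strand) encodes 15-hydroxyprostaglandin dehydrogenase, the enzyme that inactivates PGE2. It had 3, 4 and 27 counts in knockout libraries 1, 2 and 3 and 0 counts in each wild-type library. Exact 95% Poisson intervals, which cover counting error only, were 0.619 to 8.77, 1.09 to 10.2 and 17.8 to 39.3 counts in knockout libraries 1, 2 and 3. Most of the reads thus came from knockout replicate 3, which lay above the intervals of the others. With the wild-type group set to a floor of 3 counts, the observed Hpgd reads gave a 12.7-fold higher level in knockout cells. Without knockout replicate 3 the same ratio was 3.90-fold. These ratios leave out counting error in the knockout libraries, so they are not lower limits. Tested with no filter on low counts, over all 6 libraries with knockout replicate 3 included, its adjusted p was 1.24e-07 in edgeR. That value rests largely on knockout replicate 3. The unfiltered edgeR fit also gave smaller adjusted p-values than the main fit for other genes, for Ptgs2 2.74e-300 against 1.35e-21.

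Markers of lung epithelium, a tissue that makes much Hpgd, were high in the same library. Sftpc, a surfactant protein gene of alveolar type II cells, had 109, 142 and 691 counts in knockout libraries and 1, 0 and 0 counts in wild-type libraries. Scgb1a1, a club cell secretoglobin, had 185, 239 and 1085 counts in knockout libraries and 2, 1 and 2 counts in wild-type libraries. In knockout replicate 3, 9 of the 10 lung markers reached at least 2 times the mean of knockout replicates 1 and 2. Of the 10, 4 were at 0 in every wild-type library. Sftpb did not reach that level, at 300, 297 and 479 counts in knockout libraries and 1 in each wild-type library. Napsa made up most of the wild-type sum, with 5, 10 and 24 counts in knockout libraries and 18, 16 and 22 in wild-type libraries. Of 6 lung markers tested, 4 were called higher, and Napsa was not called. Per 100 Sftpc counts, Hpgd had 2.75, 2.82 and 3.91 counts in knockout libraries, per 100 Scgb1a1 counts 1.62, 1.67 and 2.49, and per 100 counts of all 10 lung markers 0.438, 0.501 and 0.966. All 3 ratios were highest in knockout replicate 3. The part of lung transcripts in the Hpgd counts was not tested. Endothelial markers summed to 26, 27 and 128 counts in knockout libraries and 7, 4 and 4 counts in wild-type libraries, and 2 of those 6 genes were at 0 in every wild-type library. Fibroblast markers summed to 2802 to 2918 counts in knockout libraries and 1219 to 1272 counts in wild-type libraries, and 2 of the 8 were at 0 in every wild-type library. Most of that sum was Pdgfra, a growth factor receptor, at 2849, 2722 and 2559 counts in knockout libraries and 1187, 1137 and 1135 counts in wild-type libraries. The collagen gene Col1a1 went the other way, with 15, 14 and 37 counts in knockout libraries and 65, 60 and 71 counts in wild-type libraries. In knockout replicate 3, 6 of the 8 fibroblast markers reached at least 2 times the mean of knockout replicates 1 and 2. Pdgfra did not, while Col3a1 had 6, 3 and 64 counts in knockout libraries and 0, 0 and 1 counts in wild-type libraries. Macrophage and leukocyte markers summed to 7248 to 8137 counts in knockout libraries and 333 to 356 counts in wild-type libraries. Nearly all of that sum in knockout libraries was Cd68, a lysosomal protein, at 7437, 7054 and 7657 counts in knockout libraries and 149, 144 and 142 counts in wild-type libraries. The largest part in wild-type libraries was Cd14, at 134, 142 and 155 counts in knockout libraries and 168, 184 and 192 counts in wild-type libraries. The leukocyte gene Ptprc had 2, 1 and 4 counts in knockout libraries and 3, 4 and 7 counts in wild-type libraries. Of these 10 markers, 4 were at 0 in every wild-type library. In knockout replicate 3, 8 of the 10 reached at least 2 times the mean of knockout replicates 1 and 2, some on few counts. Among them was Lyz2, with 28, 45 and 263 counts in knockout libraries and 1, 0 and 0 counts in wild-type libraries.

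**Figure D3:**
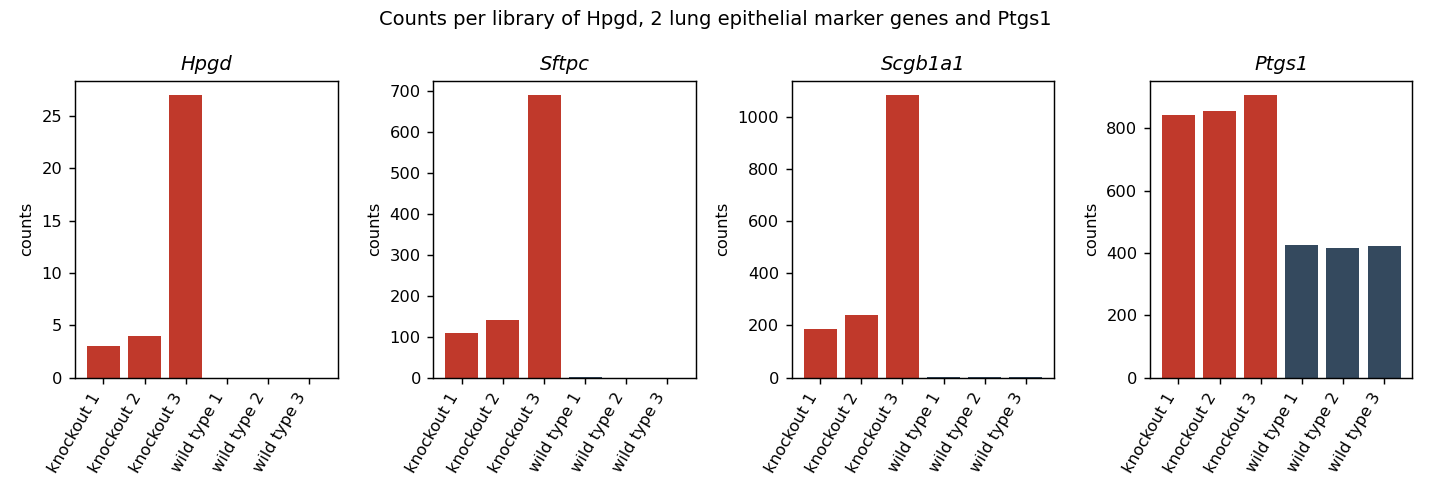
Counts per library of Hpgd, of the lung epithelial markers Sftpc and Scgb1a1, and of Ptgs1 for comparison, knockout libraries 1 to 3 on the left of each panel and wild-type libraries 1 to 3 on the right. Hpgd, Sftpc and Scgb1a1 all peak in knockout replicate 3 (27, 691 and 1085 counts), whereas Ptgs1 is at 844, 857 and 907 counts in knockout libraries.

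Further ratios set synthesis against Hpgd, again as log2 of TPM with 0.1 added. Ptges over Hpgd was 1.95, 1.27 and -1.45 in knockout libraries and 8.47, 8.41 and 8.57 in wild-type libraries. Ptgs2 over Hpgd was 9.42, 9.09 and 6.38 in knockout libraries and 10.59 in every wild-type library. The groups did not overlap in either ratio, and knockout replicate 3 was the lowest in both (exact permutation tests, two-sided, p = 0.1 each). The differences of the means were -7.89 for Ptges over Hpgd and -2.30 for Ptgs2 over Hpgd, and -6.87 and -1.34 without knockout replicate 3. Because Hpgd was at 0 in wild-type libraries, these sizes are set by the value added, and with 1 added the Ptgs2 difference was 0.0153 (exact permutation p = 1.0).

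Ptgr1 (chr4:58965439-58987119, minus strand) encodes prostaglandin reductase 1, which reduces the 15-keto product that Hpgd makes. Its level was 38.2, 36.7 and 40.7 TPM in knockout libraries and 42.0, 39.8 and 44.4 TPM in wild-type libraries, and the groups overlapped. The log2 fold change was 0.08 ± 0.07 (SE, edgeR adjusted p = 0.282), and 0.03 without knockout replicate 3. Its sign turned with upper-quartile scaling (-0.05) and on the TPM scale (-0.12).

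The 4 PGE2 receptor genes had few reads, and none was called. Ptger1 had 28, 34 and 39 counts in knockout libraries and 37, 33 and 35 counts in wild-type libraries (log2 fold change 0.10, edgeR adjusted p = 0.643). Ptger4, the receptor EP4 that signals through cyclic AMP, had 14, 19 and 14 counts in knockout libraries and 17, 14 and 15 counts in wild-type libraries (log2 fold change 0.19, edgeR adjusted p = 0.554). Ptger2 had 1 count in all, in a knockout library, and Ptger3 had 1 count in all, in a wild-type library. Detection of a change in the receptors was limited by these depths. Of 5 other prostanoid receptor genes none passed the filter, and 2 had no count in any library.

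The genes that carry PGE2 across the membrane moved in opposite directions. Slco2a1 encodes the prostaglandin transporter that takes PGE2 into cells, and Abcc4 encodes an exporter, MRP4. Slco2a1 had 2217, 2169 and 2203 counts in knockout libraries and 5293, 5194 and 5138 counts in wild-type libraries, and it was 2.12-fold higher in wild-type cells (log2 fold change -1.09 ± 0.03, SE, edgeR adjusted p = 1.18e-20). Abcc4 had 1173, 1117 and 979 counts in knockout libraries and 493, 509 and 497 counts in wild-type libraries, a 2.44-fold rise (log2 fold change 1.29 ± 0.06, SE, edgeR adjusted p = 1.14e-16). The groups did not overlap for either gene. As background for this and the lists below, 41.3% of all tested genes were called higher and 40.9% lower. Of the 4 genes in the list of transport and other breakdown, 2 were called higher and 2 lower. The others were Ptgr2, another 15-keto-prostaglandin reductase, at 0.20 on the log2 scale (edgeR adjusted p = 0.00584), and Cbr1, a carbonyl reductase that can turn PGE2 into PGF2 alpha, at -0.48 (edgeR adjusted p = 0.0209). The Ptgr2 call was lost with upper-quartile scaling (adjusted p = 0.31), and the Cbr1 call without knockout replicate 3 (adjusted p = 0.102) or wild-type replicate 3 (adjusted p = 0.144).

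Other enzymes take part in the release of arachidonic acid. Of 16 other genes of arachidonate release, 8 were tested, 3 were called higher and 2 lower. Pla2g12a, a secreted phospholipase A2, had 2030, 2012 and 2140 counts in knockout libraries and 829, 811 and 792 counts in wild-type libraries, a 2.84-fold rise (log2 fold change 1.51 ± 0.04, SE, edgeR adjusted p = 3.15e-21). Dagla, a diacylglycerol lipase, was 1.92-fold higher in wild-type cells, and Mgll, which cuts arachidonic acid from 2-arachidonoylglycerol, had 3, 8 and 8 counts in knockout libraries and 23, 29 and 19 counts in wild-type libraries. Pla2g16 rose by 0.47 on the log2 scale. The 2 listed proteins that bind and inhibit cytosolic phospholipase A2 were S100a10 and Anxa1. S100a10 fell by 0.73 ± 0.04 (SE) on the log2 scale (edgeR adjusted p = 2.77e-16). Anxa1 was called at 0.07 (edgeR adjusted p = 0.046), but its direction turned with upper-quartile scaling (-0.06) and on the TPM scale (-0.13).

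Of 6 genes listed for fatty acid uptake into phospholipid, not all of them selective for arachidonate, 1 was called higher and 4 lower. Lpcat3, an acyltransferase that favours polyunsaturated chains, rose by 0.59 on the log2 scale, while Lpcat1, Lpcat2 and Acsl3 had log2 fold changes of -0.69, -0.78 and -0.19. Of 6 genes for other terminal prostanoid synthases, 2 were tested and both were higher, Akr1b3, whose product has PGF synthase activity in mouse, by 2.08-fold and Ptgds, a prostaglandin D synthase, by 1.85-fold. Of 9 genes of the lipoxygenase branch, 3 were tested and 1 was called, the epidermal lipoxygenase Aloxe3, with a log2 fold change of 1.51. Alox5, the first enzyme of leukotriene synthesis, had no count in any library.

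Regulators of Ptgs2 were taken from a list of transcription factors. Of 12, all were tested, 5 were higher and 5 lower. Egr1, an immediate-early zinc finger factor that is known to act on the GC-rich proximal promoter of mouse Ptges, had 6, 11 and 14 counts in knockout libraries and 428, 432 and 468 counts in wild-type libraries. It was 37.9-fold higher in wild-type cells, with a log2 fold change of -5.24 ± 0.15 (SE, edgeR adjusted p = 1.91e-21). Like Ptges it was low in every knockout library. Jun, a subunit of AP-1, fell by 1.07 on the log2 scale. Cebpd, a factor of the C/EBP family, had 416, 407 and 435 counts in knockout libraries and 105, 110 and 106 counts in wild-type libraries, a 4.38-fold rise. Usf1, which binds E-boxes, had 1118, 1183 and 1223 counts in knockout libraries and 481, 452 and 471 counts in wild-type libraries, a 2.81-fold rise. The part of any of these factors in the levels of Ptges, Ptges2 or Ptgs2 was not tested.

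The Ptgs2 mRNA carries AU-rich elements that make it short-lived. Of 8 listed proteins of mRNA decay and translation that are known to act on such elements, 2 were called higher and 6 lower. Zfp36, tristetraprolin, which promotes the decay of these mRNAs, had 1416, 1345 and 1560 counts in knockout libraries and 341, 373 and 328 counts in wild-type libraries, a 4.63-fold rise (log2 fold change 2.21 ± 0.06, SE, edgeR adjusted p = 8.7e-21). Its relatives Zfp36l1 and Zfp36l2 fell, with log2 fold changes of -1.10 and -1.79. Celf2, which is known to bind the Ptgs2 mRNA and hold back its translation, had a log2 fold change of -0.97. Over all 72 listed genes other than the 8 members, 47 were tested, 17 were called higher and 20 lower, with a median log2 fold change of -0.01. Of all tested genes, 82.3% were called in either direction, so such counts do not set the lists apart. The split of the listed genes depended on the scaling, with 13 called higher and 26 lower with upper-quartile factors and 12 higher and 28 lower on the TPM scale.

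For the members with the largest changes, the genes whose pattern over the 6 libraries was closest were found by the root-mean-square difference of mean-centred log2 CPM. For Ptges these were Tmod1 (0.0561), Fam71f1 (0.0924) and Mast1 (0.115). For Ptges2 they were Fbxo6 (0.045), Pycr1 (0.0519) and Uqcrq (0.0525). For Ptgs2 they were Cask (0.0203), Eprs (0.029) and Tiam1 (0.0299). With 2 groups of 3 libraries, this measure mainly compares fold changes.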

How the data were processed

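RNA of 6 libraries was sequenced with the DNBseq platform after Trizol extraction, per the labels' protocols. Per the submitters' processing notes, the build was GRCm38 and the tools were featureCounts 2.0.1 and STAR 2.7.8a. Which annotation was counted, the strandedness and the use of multi-mapping reads are not given here by any label or header. Whole-number counts and length-normalized TPM were deposited for each gene; the 12 per-library files held the same values as the whole-series tables. Totals were 16731209 to 17108975 counts per library. The labels do not say whether libraries of a group came from separate cultures, so p-values measure only the spread between these libraries, which may be technical.

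Counts of all genes were filtered with edgeR's filterByExpr and tested with its quasi-likelihood F test (robust, TMM factors, two-sided, Benjamini-Hochberg, threshold 0.05). The SE of a log2 fold change is its size over the root of its F statistic. TPM served to compare levels between genes and for shares and ratios, tested by exact permutation over libraries. The edgeR step was tested on simulated data. Symbols and positions come from GENCODE release M21 on GRCm38, with promoter windows from RefSeq on GRCm38.p6.

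The members and lists were chosen with earlier results of these data known. Named genes are all members and PGE2 receptors and, per other list, up to 4 called genes with the smallest adjusted p; for the members with the largest changes, the 3 nearest genes above a mean level of 5 CPM are named. Marker genes picked out by name, genes next to Ptgs2 and Ptges3-ps were chosen after their values were seen. Some named genes share exon bases with another gene, among them Ptgs1, Ptger1, Ptger4, Slco2a1, Ptgr2, Mgll, Lpcat2, Lpcat3, Jun, Usf1, Cebpd, Zfp36, Zfp36l1 and Celf2, and their values are less certain. The alternatives changed the scaling (RLE, upper quartile), the tool (DESeq2 1.42.0, limma-voom), the filter (none, or 1 CPM in 3 libraries) or the scale (limma-trend on TPM with 1 or 0.1 added before log2), added a replicate block, or dropped a library at a time. The main test ran in edgeR 4.0.16 and limma 3.58.1 under R 4.3.3, and the rest in SciPy 1.17.1 under Python 3.11.15.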

Additional observations from a re-analysis of the deposited data

How the results depend on the processing

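Over the 15 alternatives, Pla2g4a, Ptgs1, Ptgs2, Ptges, Ptges2 and Ptges3 kept their direction and their call. Their log2 fold changes ran from 0.81 to 1.05, 0.97 to 1.23, 1.13 to 1.40, -4.47 to -3.85, 1.21 to 1.57 and 0.37 to 0.61, in that order. Upper-quartile factors moved the median log2 fold change of all tested genes to -0.13, and the TPM fits moved it to -0.19 (1 added) and -0.21 (0.1 added), so changes near 0 turned there. All genes called were 5382 higher and 5329 lower, against 4630 and 6189 with upper-quartile factors, 4115 and 6591 with log2(TPM + 1), and 4102 and 6569 with log2(TPM + 0.1).

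Directions turned, with upper-quartile factors, log2(TPM + 1) and log2(TPM + 0.1) in that order, for Ptgr1 (-0.0503, -0.1224, -0.1251), Ptger1 (-0.0281, -0.0656, -0.1065) and Anxa1 (-0.0599, -0.1339, -0.1341), and with the TPM fits alone for Ptger4 (-0.0067, -0.0209) and Ptgr2 (-0.0028, -0.0029). Of these, Anxa1 was called lower on the TPM scale (adjusted p = 0.0128 and 0.0137, limma) and its call was lost in 7 other alternatives, among them leaving out knockout replicate 2 (adjusted p = 0.139), wild-type replicate 1 (0.102) or wild-type replicate 3 (0.326). Leaving out 1 library at a time put Ptger1 between -0.0102 and 0.228. The Cbr1 call was also lost with DESeq2 (adjusted p = 0.0747). With 1 added in place of 0.1, the difference in log2 Ptgs2 over Hpgd was 0.0153, since Hpgd is at 0 in wild-type libraries.

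The replicate numbers showed no clear pairing of the libraries in their deviations from the group means. Same-numbered libraries had correlations of -0.0074, 0.0416 and 0.0132, and the other pairs ran from -0.0382 to 0.0224. Such values cannot exclude a pairing. With the replicate number as a block, 5430 genes were higher and 5368 lower, and member calls stayed at 5 higher and 1 lower. Low counts limit what can be said of Hpgd and the PGE2 receptors.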

Other observations

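The noncoding neighbours of Ptgs2 moved against it; both were chosen after their values were seen. Ptgs2os runs from chr1:150074873 to 150099963 on the minus strand, so it starts just upstream of Ptgs2, inside the upstream bases printed above. It had 41, 37 and 36 counts in knockout libraries and 139, 157 and 130 counts in wild-type libraries, with no overlap. Its log2 fold change was -1.74 ± 0.14 (SE, edgeR adjusted p = 1.13e-11), whereas that of Ptgs2 was 1.35. Ptgs2os2, on the minus strand beyond the other end of Ptgs2, had 20, 9 and 9 counts in knockout libraries and 46, 26 and 29 counts in wild-type libraries (log2 fold change -1.24, edgeR adjusted p = 7.34e-04).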
